A study of Mus musculus with 2 samples.

Results

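The genes followed here are the Notch ligands Dll1, Dll3, Dll4 and Jag1, the receptors Notch1 and Notch2, the nuclear targets Hes1, Hey1 and Hey2, and Mfng, an enzyme that adds sugar to Notch receptors. They are 10 of the 33456 genes in the count tables and were taken by symbol, and all 10 had UMIs in both libraries. The embryoid body (EB) library came from C57BL/6 mouse embryonic stem cells that were moved off feeder cells and then grown as floating aggregates in serum for 4 days, a culture labelled as favouring hemangiogenic mesoderm. The yolk sac (YS) library came from C57BL/6 yolk sacs of E9.5 and E10.5 embryos, pooled in equal numbers, from which dead cells and about 70% of the cells positive for the erythroid surface marker Ter119 had been sorted away. Both suspensions were frozen and thawed before capture, and the labels name no drug, transgene or mutation in either. Each source gave 1 library, so there are no replicates: no p-value can be given, intervals cover counting error only, and culture, stage, dissociation and sort cannot be told apart as sources of a difference between EB and YS.

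Notch signalling passes between touching cells. A membrane ligand of the Delta-like (Dll) or Jagged (Jag) family on one cell binds a Notch receptor on its neighbour, proteases release the receptor's intracellular part, and this part joins the DNA-binding protein RBPJ to switch on genes such as Hes1, Hey1 and Hey2. In the early embryo Dll1 and Dll3 are known from the primitive streak and the forming somites, where Dll3 acts inside the producing cell as an inhibitor and not as an activating ligand, while Dll4 with Notch1 and Notch4 is known from arterial endothelium and from the vessel wall that releases blood progenitors.

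The bases just before the RefSeq start of transcription are shown for the 3 Delta-like ligands, which set the libraries apart, and for the target that held the RBPJ motif. They come from RefSeq windows on GRCm38.p6 that run from 250 bases before each start to 50 after it, of which the 250 bases before the start are printed. Windows were matched for 7 of the 10 genes (Dll1, Dll3, Dll4, Jag1, Notch1, Notch2 and Hey2), and Hes1, Hey1 and Mfng were not matched. Each is written 5′ to 3′ on the gene's own strand, and capitals mark matches on either strand to TGGGAA, the RBPJ core, or to CACNAG, the N box that Hes proteins bind. The windows lie at chr17:15376933-15377182 (Dll1, minus strand), chr7:28301786-28302035 (Dll3, minus strand), chr2:119325534-119325783 (Dll4, plus strand) and chr10:30842784-30843033 (Hey2, minus strand).
Dll1: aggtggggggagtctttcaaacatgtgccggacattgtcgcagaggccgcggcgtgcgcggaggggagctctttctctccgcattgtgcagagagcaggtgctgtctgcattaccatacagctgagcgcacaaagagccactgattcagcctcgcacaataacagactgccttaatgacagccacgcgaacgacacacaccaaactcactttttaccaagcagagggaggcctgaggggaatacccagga
Dll3: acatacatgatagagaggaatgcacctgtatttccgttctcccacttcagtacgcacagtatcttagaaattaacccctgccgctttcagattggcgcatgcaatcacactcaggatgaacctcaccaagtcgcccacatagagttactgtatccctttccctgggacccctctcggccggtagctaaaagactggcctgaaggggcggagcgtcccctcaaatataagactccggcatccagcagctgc
Dll4: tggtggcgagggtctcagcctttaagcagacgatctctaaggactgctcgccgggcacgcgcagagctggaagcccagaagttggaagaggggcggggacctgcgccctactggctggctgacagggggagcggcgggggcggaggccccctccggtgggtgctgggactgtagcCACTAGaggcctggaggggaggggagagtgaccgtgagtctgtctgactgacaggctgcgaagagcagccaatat
Hey2: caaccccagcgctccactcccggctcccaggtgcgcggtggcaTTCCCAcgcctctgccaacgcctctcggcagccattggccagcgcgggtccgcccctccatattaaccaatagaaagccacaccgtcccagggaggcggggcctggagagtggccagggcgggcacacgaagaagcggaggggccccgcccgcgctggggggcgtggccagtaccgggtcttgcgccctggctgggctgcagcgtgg
Of the 7 windows that of Hey2 alone held TGGGAA, at 2 places: the capitals at position -207 on the opposite strand, and a match that begins at -3 and crosses the start, so that it is not in capitals. Among all 32851 RefSeq windows of this length 25.6% held TGGGAA and 42.5% held CACNAG. The N box match of Dll4 begins at -75 and that of Dll1 at 13, past the printed bases. Notch2 held 1 N box match, and Dll3 and Jag1 held neither motif. The RefSeq start used for Dll3 lies 453 bases from the GENCODE start of the gene, and the printed Dll3 bases lie inside the gene by the GENCODE coordinates. The RefSeq start of Notch1 lies 12841 bases from its GENCODE start, so the 3 N box matches of its window are not at the GENCODE start. These matches describe letters in a window and were not tested against the levels.

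Cells were barcodes with at least 6172 (EB) or 6537 (YS) unique molecular identifiers (UMIs, each marking a captured RNA molecule) and at most 10% mitochondrial UMIs. This gave 1878 EB cells with 50691307 UMIs and a median of 25547.0 UMIs per cell, and 775 YS cells with 24184081 UMIs and a median of 28461.0. Only 2 barcodes were kept in both libraries, where 1.97 would be shared if they were drawn independently. Levels are CPM, the UMIs of a gene summed over a group's cells and scaled to 1000000 UMIs of that group, so that they rise with the number of cells that hold the gene and with the RNA per cell alike, and 95% intervals are exact Poisson intervals for a level, exact conditional binomial for a ratio and Clopper-Pearson for a share of cells. A gene was called when the levels differed at least 2-fold and the 2 groups held 10 or more UMIs of it between them. Levels are compared between groups for a gene and not between genes. On mm10 the ligand genes lie at chr17:15367354-15376872 (Dll1), chr7:28293553-28302238 (Dll3), chr2:119325784-119335962 (Dll4) and chr2:137081456-137116644 (Jag1), all annotated as protein-coding.

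Between the whole libraries the ligands parted: Dll1, Dll3 and Jag1 were higher in EB cells and Dll4 in YS cells, while both receptors and the target Hes1 lay within 2-fold. Of the 10 genes 4 were at least 2-fold higher in EB (Dll1, Dll3, Jag1 and Hey1), a direction taken by 18.5% of the 15621 genes compared, and 2 were higher in YS (Dll4 and Mfng), a direction taken by 21.5%. The other 4 lay within 2-fold. The 10 genes had a median log2 ratio (EB over YS) of 0.44, and all genes compared one of -0.00167.

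Dll1, a ligand that activates Notch on the neighbouring cell, had 242 UMIs in EB and 15 in YS. That is 4.77 CPM (4.19 to 5.42) in EB against 0.62 CPM (0.347 to 1.02) in YS, a 7.70-fold difference (4.58 to 13.97). Dll3, the inhibitory relative, had 4213 UMIs in EB and 9 in YS, or 83.1 CPM (80.6 to 85.7) against 0.372 CPM (0.17 to 0.706). Its 223-fold ratio (118 to 489) was the widest of the 53 genes of the pathway list, and 56.2% of EB cells and 1.16% of YS cells held a UMI of it. Were all of it free RNA as in barcodes without a cell, 0.846% of EB cells would hold a Dll3 UMI.

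Jag1, the Jagged ligand, was 3.47-fold higher in EB (2.46 to 5.00), at 5.45 CPM (4.82 to 6.13) against 1.57 CPM (1.11 to 2.16). Dll4, the endothelial ligand, ran the other way: 5 UMIs in 4 EB cells and 47 UMIs in 28 YS cells. Its level was 0.0986 CPM (0.032 to 0.23) in EB and 1.94 CPM (1.43 to 2.58) in YS, 19.7-fold higher in YS (7.87 to 63.5). The Dll4 gene overlaps Gm14207 on the opposite strand, which had 24 UMIs in YS. The labels do not say whether counting used strand, so part of the reads of overlapping genes cannot be assigned with certainty.

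The receptors differed little between libraries. Notch1 stood at 18.4 CPM (17.2 to 19.6) in EB and 13.2 CPM (11.8 to 14.7) in YS, and Notch2 at 15.1 CPM (14.0 to 16.2) and 11.4 CPM (10.1 to 12.8). Among the targets, Hes1, a transcriptional repressor, was at 127.6 CPM (124.5 to 130.7) in EB and 116.3 CPM (112.1 to 120.7) in YS. A Hes1 UMI was seen in 80.5% of EB cells and 53.0% of YS cells, where free RNA alone would give 3.61% and 0.546%. Hey1, a related repressor, was 8.09-fold higher in EB (6.06 to 11.0), at 16.4 against 2.03 CPM. Hey2 had 48 UMIs in EB and 18 in YS, 0.947 against 0.744 CPM, and its ratio of 1.27 (0.727 to 2.32) spans no difference. Mfng, a Fringe enzyme that changes how receptors respond to Delta and Jagged ligands, was 28.5-fold higher in YS (21.4 to 38.7), with 694 UMIs at 28.7 CPM against 51 UMIs at 1.01 CPM.

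**Figure D1:**
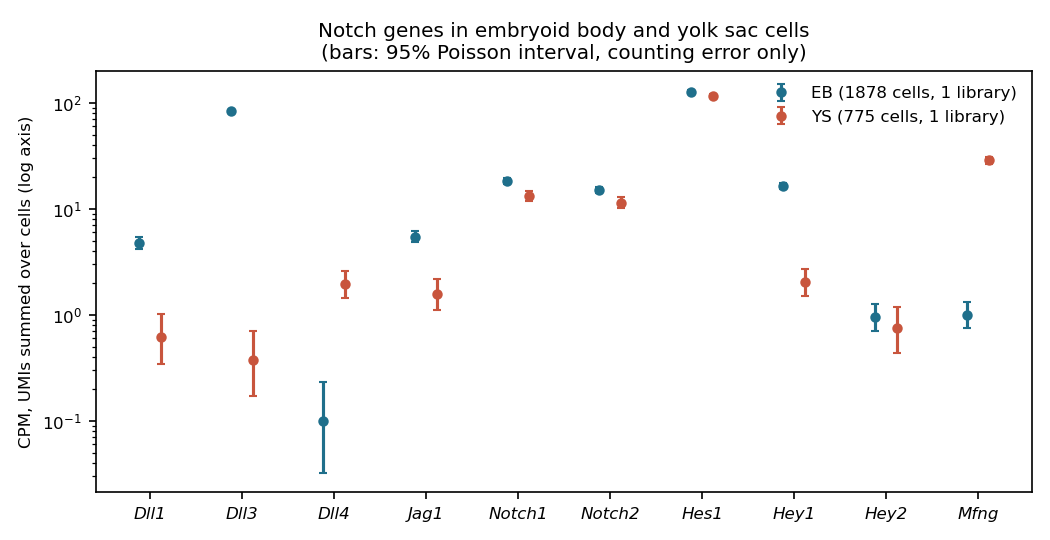
Level of each of the 10 Notch genes in EB (blue) and YS (red) cells as CPM on a log axis, with 95% Poisson intervals for counting error and 1 library a group. Dll1, Dll3, Jag1 and Hey1 lie higher in EB, Dll4 and Mfng in YS, and Notch1, Notch2, Hes1 and Hey2 lie within 2-fold of each other.

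The rest of the pathway was read from a list of 53 genes, the 10 above among them, of which 52 passed the minimum of 10 UMIs (Dlk2 did not). Of the 42 others that passed, 9 were at least 2-fold higher in EB and 6 in YS, with a median log2 ratio of 0.02. Beside the 18.5% and 21.5% of all genes called in these directions, the counts are no result about the list. The receptor Notch3 was 13.8-fold higher in EB (10.1 to 19.3), at 23.3 against 1.70 CPM. Dtx1, a Deltex ubiquitin ligase that acts on Notch, was 23.6-fold higher in EB (6.37 to 197.7), with 99 UMIs against 2. These 2 and Dll3 had the highest ratios of the list.

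At the other end lay Heyl, Dlk1 and Mfng. Heyl, a further Hairy-related target, had 3 UMIs in EB and 52 UMIs in 27 YS cells, a 36.3-fold ratio (11.8 to 181.9). Dlk1, a Delta-like membrane protein without the usual receptor-binding domain, was 32.5-fold higher in YS (30.3 to 34.8), at 555.4 against 17.1 CPM. By role, 4 of 5 ligands, 2 of 4 receptors and 2 of 4 ligand ubiquitin ligases were higher in EB. None of the 9 proteases was, and 3 of them were higher in YS: Adam10, the sheddase that makes the first cut, by 3.89-fold (3.45 to 4.38), Psen2 by 3.03-fold (2.59 to 3.55) and Aph1c by 2.90-fold (1.70 to 5.01). In the nuclear complex 7 of 8 genes lay within 2-fold, Rbpj at 17.2 CPM in EB and 20.3 CPM in YS among them. These are counts of few genes, beside 18.5% of all genes higher in EB and 21.5% in YS, and no role was tested.

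**Figure D2:**
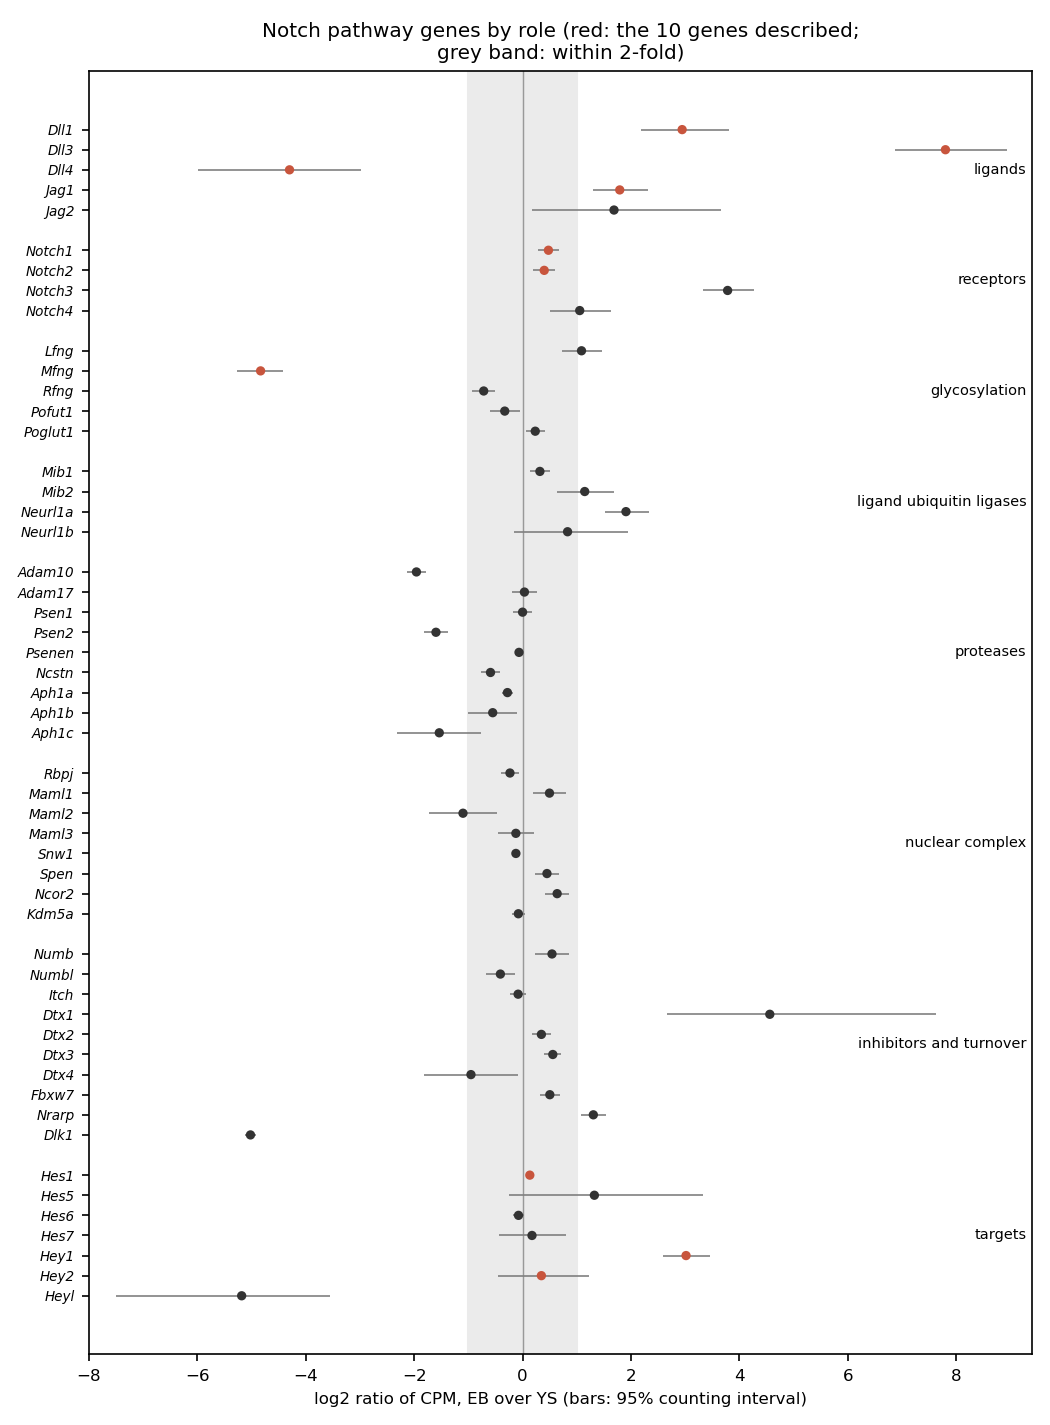
log2 ratio of CPM in EB over YS for the 52 pathway genes that passed the minimum, grouped by role, with 95% counting intervals, the 10 genes in red and a grey band for ratios within 2-fold. Dll3 lies furthest toward EB at 7.80 and Heyl furthest toward YS at -5.18, the ligands span both sides (Dll4 at -4.30), and most protease and nuclear complex genes sit in or near the band.

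To place the genes in cell types, each library was clustered by itself with all 53 pathway genes left out, so that their own levels did not form the clusters. Names ending in "-like" rest on marker lists. The EB cells formed 12 clusters, 5 of which carried mesoderm names: a primitive streak and nascent mesoderm-like cluster (347 cells), 2 allantois and extraembryonic mesoderm-like clusters (228 and 71 cells) and 2 hemangiogenic-like clusters (88 and 85 cells). The YS cells formed 13 clusters. They comprised 6 blood clusters (433 cells), an endothelial-like cluster (48 cells), 4 wall clusters with smooth muscle-like, mesothelial-like or mesenchymal-like names (236 cells), an extraembryonic endoderm-like cluster (27 cells) and an unnamed cluster, cluster 10 (31 cells), led by Id2, Crabp2 and Sox11. All 16 endothelial markers were enriched in the endothelial-like cluster, whose median of 13184.5 UMIs per cell was below that of the library.

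Dll1 was highest in the streak and nascent mesoderm-like cluster, with 115 of its 242 EB UMIs there, at 13.3 CPM (11.0 to 16.0) and in 25.1% of its cells. Next came cluster 1, an unnamed cluster of 234 cells led by Car3, Pdlim4 and Hoxb1, at 7.66 CPM (5.61 to 10.2). That interval lies below the first, and from cluster 1 downward each neighbour in the order overlapped the next. Dll1 was at 0 UMIs in both allantois and extraembryonic mesoderm-like clusters and in hemangiogenic-like cluster 10, and at 3 UMIs in hemangiogenic-like cluster 9. So 115 of the 118 Dll1 UMIs of EB mesoderm lay in the cells with streak markers.

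Dll3 was detected in every EB cluster, from 4.64 CPM (2.12 to 8.81) in allantois and extraembryonic mesoderm-like cluster 11, through a median of 44.5 CPM, to 186.0 CPM (175.3 to 197.3) in cluster 1 and 179.8 CPM (171.0 to 189.0) in the streak and nascent mesoderm-like cluster. The highest pair overlapped, and both lay above all other EB clusters, the nearest being unnamed cluster 3 at 84.7 CPM (77.7 to 92.1). The 2 hemangiogenic-like clusters differed: 48.5 CPM (40.2 to 57.9) in cluster 9, which is led by Etv2, against 9.36 CPM (5.63 to 14.6) in cluster 10, led by Lmo2. In the YS clusters of at least 20 cells Dll3 ranged from 0 UMIs in 6 clusters to 1.34 CPM, each non-zero value resting on 1 or 2 UMIs.

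Dll4 showed the opposite placement. In EB its 5 UMIs fell in hemangiogenic-like cluster 10 (3), hemangiogenic-like cluster 9 (1) and the definitive endoderm-like cluster (1), and the other 9 clusters had none. In YS 41 of 47 UMIs fell in the endothelial-like cluster, at 55.2 CPM (39.6 to 74.9) in 22 of its 48 cells, and no other cluster of at least 20 cells passed 0.895 CPM. Without the 5 cells that held most of its UMIs the endothelial level was 37.7 CPM. The blood clusters, which serve as a check on free RNA, held 3 Dll4 UMIs in 433 cells.

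Jag1 was spread more evenly. In EB it was highest in the epiblast-like cluster, at 12.5 CPM (9.09 to 16.8), and this interval overlapped those of the definitive endoderm-like cluster (10.7 CPM), the streak and nascent mesoderm-like cluster (8.09 CPM) and cluster 1 (7.33 CPM). The 4 other mesoderm clusters lay between 0.985 and 1.78 CPM. In YS it was highest in the endothelial-like cluster, at 9.42 CPM (3.79 to 19.4) from 7 UMIs in 7 cells, close to the 9.09 CPM (3.65 to 18.7) of unnamed cluster 10. Mesothelial-like cells had 4.79 CPM and smooth muscle-like cells 4.03 CPM, and 4 of the 6 blood clusters had no UMI.

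**Figure D3:**
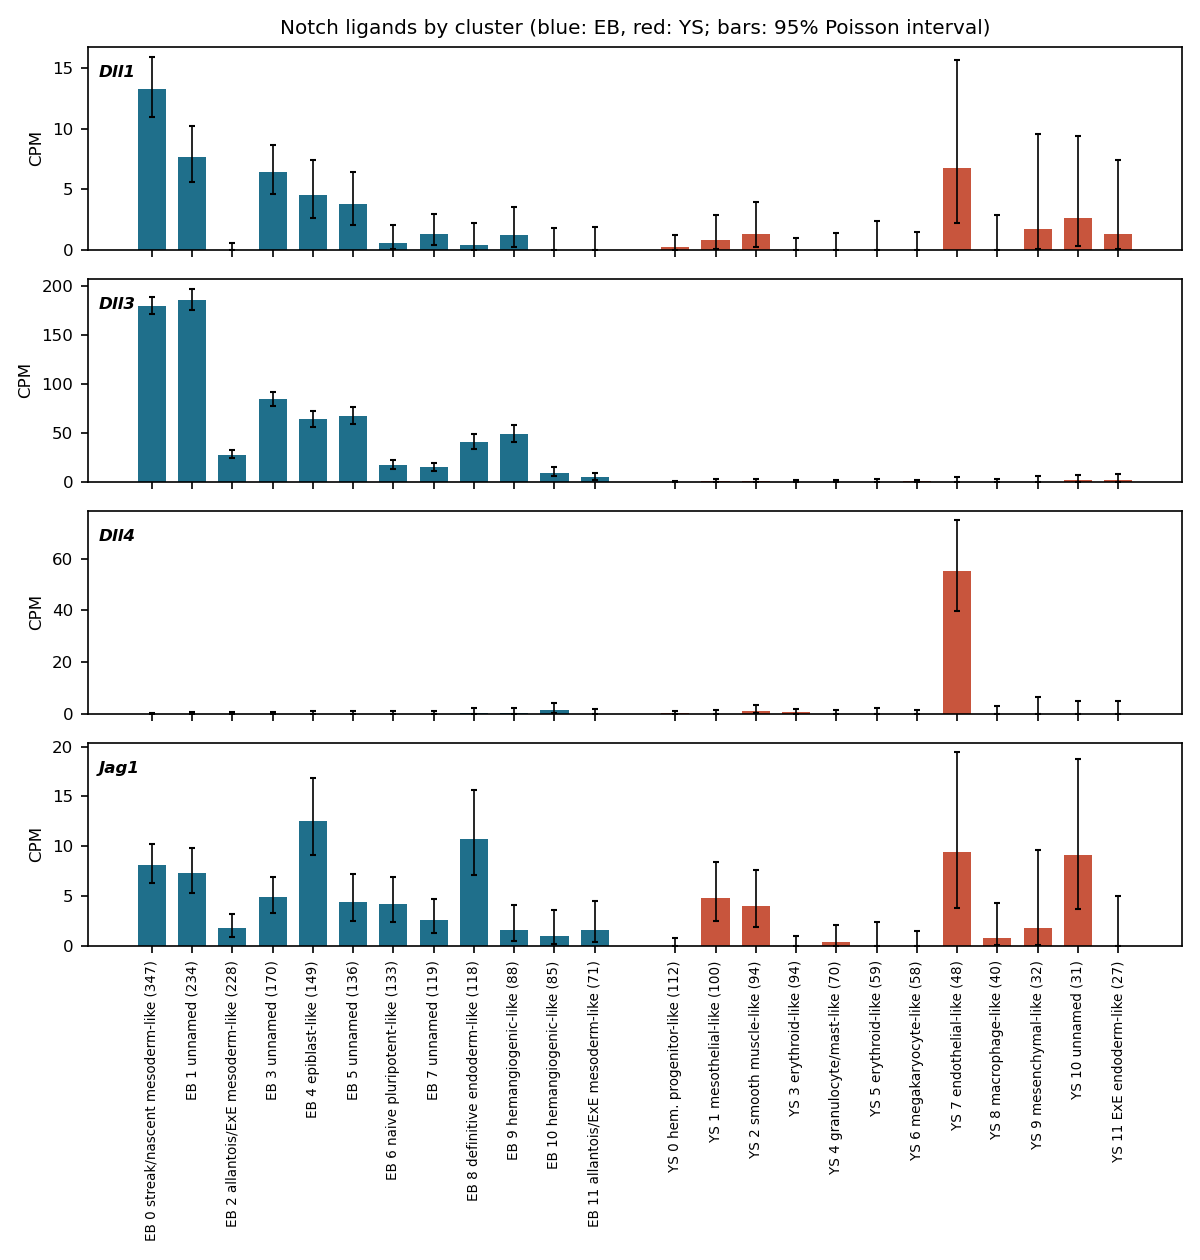
CPM of the 4 ligands in each EB (blue) and YS (red) cluster of at least 20 cells, cell numbers in brackets, with 95% Poisson intervals and a separate scale for each gene. Dll1 and Dll3 peak in EB clusters 0 and 1, Dll4 stands in the YS endothelial-like cluster at 55.2 CPM, and the intervals of Jag1 overlap across its highest clusters.

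The direct contrast set the 819 cells of the 5 EB mesoderm clusters (43.6% of EB cells) against the 48 YS endothelial-like cells. Dll4 had 4 UMIs in EB mesoderm and 41 in the endothelial-like cells, 0.188 against 55.2 CPM, 294-fold higher in the vessel cells (106.5 to 1130). Dll3 had 1876 UMIs (88.0 CPM) in EB mesoderm and 0 in the endothelial-like cells, at least 21.8-fold higher in EB mesoderm when the 0 is set to 3 UMIs. Dll1 was not separable at this depth: 5.54 CPM (4.58 to 6.63) against 6.73 CPM (2.19 to 15.7) from 5 UMIs, a ratio of 0.823 (0.343 to 2.58). Jag1 was past 2-fold toward the endothelial-like cells as a point value, at 4.22 against 9.42 CPM, but the interval of that 2.23-fold ratio (0.872 to 4.79) reached below 1 and the call was lost under 6 of the 11 alternatives run. With a UMI minimum of 20% of the percentile, which left 25 endothelial-like cells, the Jag1 ratio turned the other way. Dll1 had no stable direction either, and was past 2-fold toward the endothelial-like cells (log2 -1.11) with clusters at resolution 1.5.

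The receptors divided in this contrast although the whole libraries had them level. Notch1 was 3.37-fold higher in the endothelial-like cells (2.50 to 4.46), 74.0 CPM (55.8 to 96.3) against 22.0 CPM (20.02 to 24.05). Notch2 was 4.80-fold higher in EB mesoderm (1.63 to 23.4), 19.4 against 4.04 CPM, the second value resting on 3 UMIs. Mfng had 6 UMIs in EB mesoderm and 58 in the endothelial-like cells and was 277-fold higher there (119.9 to 786.3). Hey1 was 4.18-fold higher in EB mesoderm (1.62 to 15.4), from 480 UMIs against 4, and Hes1 was within 2-fold at 143.1 against 214.0 CPM. Both sides were also chosen by marker UMIs in place of clusters: 774 EB cells with Kdr and 81 YS cells with Cdh5 and Pecam1. Notch1 then fell within 2-fold (log2 -0.838 against -1.75) and Dll4 stayed far apart (log2 -6.69 against -8.20).

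In all, 3 of the 10 genes were higher in EB mesoderm and 4 in the endothelial-like cells, where 12.6% and 24.8% of the 12769 genes compared were. The median log2 ratio was -0.69 over the 10 genes and -0.05 over all. Counting cluster 1 as mesoderm too, a choice made after seeing the data, gave 1053 cells and again counts of 3 and 4, beside 12.3% and 24.9% of 13163 genes: Jag1 then lay within 2-fold (1.92-fold, 0.757 to 4.07) and Hey2 passed it on 2 YS UMIs. Without cluster 1, 37 other pathway genes passed the minimum. Of these 1 was higher in EB mesoderm and 10 in the endothelial-like cells, beside the 12.6% and 24.8% of all genes. The 1 was the receptor Notch3 (550 UMIs against 0, at least 6.39-fold). Those higher in the endothelial-like cells included Notch4, the endothelial receptor, by 8.13-fold (4.45 to 14.1) and Dlk1 by 25.9-fold (22.2 to 30.2). Nrarp, a feedback inhibitor that Notch itself induces, was higher there by 4.35-fold (3.38 to 5.53). Over the whole libraries these ran the other way: Notch4 was 2.08-fold (1.42 to 3.11) and Nrarp 2.47-fold (2.12 to 2.89) higher in EB.

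The contrast was then narrowed to the 173 hemangiogenic-like EB cells, the EB cells nearest in name to vessel and blood. The point values of the 3 ligands that passed the minimum lay on the same side as in EB mesoderm, a side that was not stable there for Jag1. Dll4 was at 0.884 CPM (0.241 to 2.26) here, and the endothelial-like cells were 62.5-fold higher (22.6 to 240.0). Jag1 was at 1.33 CPM from 6 UMIs, and the endothelial-like cells, on 7 UMIs, were 7.11-fold higher (2.04 to 25.6). Dll3 remained present at 30.9 CPM (26.0 to 36.5), at least 7.66-fold higher than in the endothelial-like cells. Dll1 was under the minimum, with 3 UMIs (0.663 CPM) against 5 (6.73 CPM). Here 3 genes were higher in the EB cells and 4 in the YS cells of 9 that passed the minimum, beside 14.5% and 25.4% of all 10705 genes. Endothelial markers summed to 606.8 CPM in the hemangiogenic-like cells, with Emcn, Lyve1, Stab1 and Stab2 at 0, and to 9354.0 CPM in the YS endothelial-like cells.

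Against the 433 YS blood cells the picture was simpler. Of the 9 genes that passed the minimum, 8 were higher in EB mesoderm and 1 in blood, where 27.7% and 16.4% of 13827 genes were. The 3 ligands that passed were among the 8: Dll3 by 723.7-fold (200.1 to 5981) on 2 blood UMIs, Dll1 by 91.0-fold (16.0 to 3626) on 1 and Jag1 by 34.7-fold (9.34 to 291.1) on 2. With so few blood UMIs each could pass the minimum only by being higher in EB mesoderm. That all 3 took this direction is therefore no result about the ligands. Dll4 was under the minimum, with 4 UMIs in EB mesoderm and 3 in blood. Hes1 was 4.81-fold higher in EB mesoderm (4.37 to 5.30) and Hey1 26.4-fold (15.6 to 48.8). The gene that ran the other way was Mfng, 136.7-fold higher in blood (62.5 to 374.0), at 38.5 CPM (35.6 to 41.6) against 0.282 CPM. The blood cells were not alike, and 211 of them were erythroid- or megakaryocyte-like. Against the 222 others, a choice made after seeing the data, 7 genes were higher in EB mesoderm and 1 in blood, beside 22.7% and 18.6% of 13546 genes. Notch1 was the gene that left the count, at 22.0 against 16.2 CPM (1.36-fold, 1.12 to 1.65), and the Hes1 ratio was 2.63 (2.38 to 2.90).

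Within YS, Mfng marked a set of blood clusters and the vessel cells. It stood at 89.4 CPM (81.0 to 98.5) in hematopoietic progenitor-like cells, 78.1 CPM (59.3 to 100.9) in endothelial-like cells and 60.8 CPM (51.8 to 71.0) in granulocyte and mast cell-like cells. The endothelial-like interval overlapped both others. Megakaryocyte-like cells had 18.4 CPM (13.4 to 24.6) and macrophage-like cells 13.9 CPM (8.23 to 21.9), while both erythroid-like clusters, smooth muscle-like, mesenchymal-like and extraembryonic endoderm-like cells had 0 UMIs. Of the blood markers in the 27 endothelial-like cells with Mfng, Spi1 was at 13.9 CPM against 238.5 CPM in the progenitor-like cells. The whole progenitor list summed to 646.2 CPM in these 27 cells and 1026.0 CPM in the progenitor-like cells. In the 21 endothelial-like cells without Mfng it summed to 566.6 CPM. Ptprc and Myb were at 0 UMIs in both sets of endothelial-like cells. Runx1 had 8 UMIs with Mfng and 0 without, and Spi1 had 7 and 1. Adgrg1, Csf1r, Lyz2 and Tyrobp were at 0 only in the cells without Mfng, and Cx3cr1 only in those with it. The cells with Mfng were deeper, with a median of 16401.0 UMIs against 10212.0 in those without. The part of depth and cell number in these zeros was not tested. The macrophage list summed to 163.0 CPM with Mfng and 400.0 CPM without, and the erythroid list to 441.4 and 695.7 CPM. The granulocyte and mast cell list summed to 33.8 and 29.16 CPM. The part of these markers in the result was not tested. Of the 51 EB UMIs of Mfng, 17 lay in the definitive endoderm-like cluster, its highest in EB at 6.75 CPM (3.93 to 10.8).

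The receptors took different YS cells. Notch1 was highest in the endothelial-like cluster, at 74.0 CPM (55.8 to 96.3) in 60.4% of cells, above the next group of granulocyte and mast cell-like (23.8 CPM), mesothelial-like (22.7 CPM) and smooth muscle-like (22.4 CPM) cells, whose intervals overlapped. It was near 0 in erythroid-like cells, with 2 UMIs in both clusters together. Notch2 was highest in unnamed cluster 10, at 76.6 CPM (58.3 to 98.8), yet 5 cells carried most of it, and without them the level was 24.5 CPM. In the endothelial-like cells Notch2 rested on 3 UMIs.

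In EB, Notch1 was highest in the streak and nascent mesoderm-like cluster, at 36.1 CPM (32.2 to 40.3), overlapping cluster 1 at 30.1 CPM (25.9 to 34.9), the same 2 clusters that led for Dll1 and Dll3. It was lowest in definitive endoderm-like cells, at 2.78 CPM (1.12 to 5.73). Notch2 was highest in allantois and extraembryonic mesoderm-like cluster 11, at 40.7 CPM (32.2 to 50.8), above all other EB clusters. The other 11 clusters ran from 8.44 to 22.9 CPM, so ligand-rich and Notch2-rich mesoderm were not the same clusters.

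Of the targets, Hes1 was broad in EB, where 10 of 12 clusters were above 0.5 of the highest level (67.5 to 190.1 CPM, median 125.5). In YS it ran from 0.409 CPM in megakaryocyte-like cells, on 1 UMI, to 379.0 CPM (353.9 to 405.4) in smooth muscle-like cells. Mesothelial-like cells at 363.5 CPM and mesenchymal-like cells at 326.1 CPM overlapped with the highest, although 5 cells held enough of the mesenchymal-like UMIs that the level without them was 91.4 CPM. Endothelial-like cells had 214.0 CPM. Progenitor-like blood cells had 61.9 CPM and granulocyte and mast cell-like cells 62.0 CPM, and erythroid-like cells had 3.58 and 6.37 CPM.

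Hey1 and Hey2 led in the same EB cluster, hemangiogenic-like cluster 10. Hey1 was there at 45.3 CPM (36.5 to 55.6), above the 26.8 CPM (20.8 to 34.1) of hemangiogenic-like cluster 9, and Hey2 at 6.40 CPM (3.41 to 10.9) from 13 UMIs in 13 cells, an interval that overlaps the next. In YS Hey1 was highest in unnamed cluster 10, at 26.0 CPM (15.9 to 40.1), but 5 cells carried most of its 20 UMIs and left 5.45 CPM without them. Hey2 had no more than 6 UMIs in any YS cluster. Heyl, by contrast, was at 21.5 CPM in smooth muscle-like cells and no more than 1.30 CPM elsewhere in YS. Of its 52 UMIs in all YS cells, 48.1% lay in 5 cells and 12 in 1 cell.

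**Figure D4:**
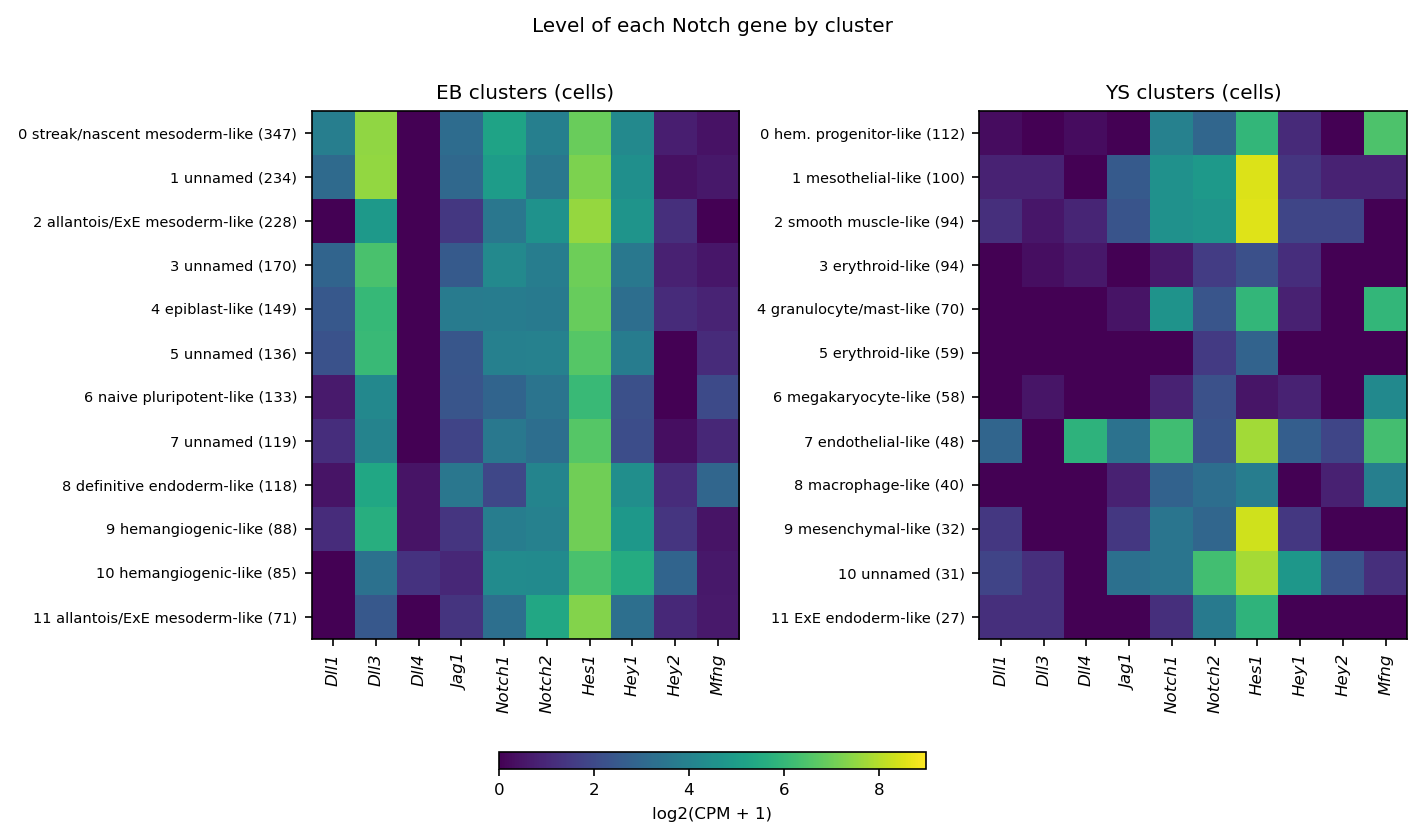
Heat map of log2(CPM + 1) for the 10 genes (columns) in the EB and YS clusters of at least 20 cells (rows, cell numbers in brackets), on a common colour scale. All EB rows show Dll3 and Hes1, whereas YS rows divide into a wall with bright Hes1, progenitor- and granulocyte-like blood with Mfng and with Hes1 at about 62 CPM, erythroid-like blood with little of either, and an endothelial-like row with Dll4, Notch1, Hes1 and Mfng.

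Within YS, the endothelial-like cells were set against the blood cells of the same library, so that freezing, thawing and capture were shared. The library pools its stages and the sort acted on Ter119-positive cells, so stage and sort are not known to be alike in both classes. Median depth was 13184.5 UMIs in the endothelial-like and 38281.0 in the blood cells. Of the 6 Notch genes that passed the minimum, 5 were higher in the endothelial-like cells and 0 in blood, beside 29.5% and 10.2% of 11812 genes. They were Dll4 (302.4-fold, 96.5 to 1527), Notch1 (8.57-fold, 6.16 to 11.8), Hes1 (7.20-fold, 5.98 to 8.62), Hey1 (6.32-fold, 1.51 to 20.1, on 4 endothelial UMIs) and Mfng (2.03-fold, 1.52 to 2.66). Notch4 was 34.2-fold higher (15.1 to 80.8) and Nrarp 22.4-fold (16.1 to 31.2). Against the 222 blood cells that were neither erythroid- nor megakaryocyte-like, 4 genes were higher in the vessel cells and 0 in blood, beside 23.2% and 13.1% of 11234 genes. Mfng then lay within 2-fold, at 78.1 against 69.0 CPM (1.13-fold, 0.848 to 1.48). Notch1 was 4.57-fold higher (3.28 to 6.29) and Hes1 3.93-fold (3.26 to 4.71), while Dll4 had 1 UMI in these blood cells. So Dll4, Notch1, Hes1 and Hey1 were past 2-fold in the vessel cells against both sets of blood cells, and Mfng only against all of them.

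The endothelial-like cells were then split by whether a Dll4 UMI was seen, 22 cells with and 26 without, with medians of 13960.0 and 11173.5 UMIs per cell. Of the 9 arterial genes that passed the minimum, 3 were at least 2-fold higher with Dll4 and none without it, and of the 9 venous genes 1 was higher without it, beside 8.51% and 4.74% of all 6733 genes. Gja5, a connexin of arterial endothelium, was at 36.5 against 5.16 CPM (7.07-fold, 1.60 to 64.6), seen in 3 and 1 cells. Gja4, another arterial connexin, had 58 UMIs against 5, but 40 of its UMIs lay in 1 cell and it was seen in 3 and 4 cells. Vegfc was 2.90-fold higher (1.08 to 9.05) in the cells with Dll4, and Nr2f2, the venous transcription factor, was 2.91-fold higher (1.12 to 8.90) in those without.

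Of the other arterial genes Nrp1 (1.80-fold, 1.39 to 2.34), Unc5b (1.81), Epas1 (1.46), Efnb2 (1.41), Sox17 (1.24) and Acvrl1 (0.837) lay within 2-fold, and Cxcr4, Bmx and Cxcl12 were under the minimum. Of the venous genes Emcn was 1.91-fold higher without Dll4 (1.41 to 2.59), while Lyve1 (1.56), Stab2 (1.76), Stab1 (1.39), Flt4 (1.43), Aplnr (1.33) and Ephb4 (1.09) had ratios above 1 toward the cells with Dll4, and Nrp2 (0.854) below. The list called venous here therefore did not move as a whole. On it, Emcn, Lyve1, Stab1 and Stab2 were also among the general endothelial markers used to name the cluster. Notch4 had a UMI in 11 of the 22 cells with Dll4 and 3 of the 26 without, 5.08-fold by level (1.42 to 27.6). Notch1 was level (73.1 against 74.9 CPM), and Hes1 was at 275.4 against 157.5 CPM (1.75-fold, 1.26 to 2.45). Detection of Dll4 depends on a cell's depth, and its part in these differences was not tested.

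**Figure D5:**
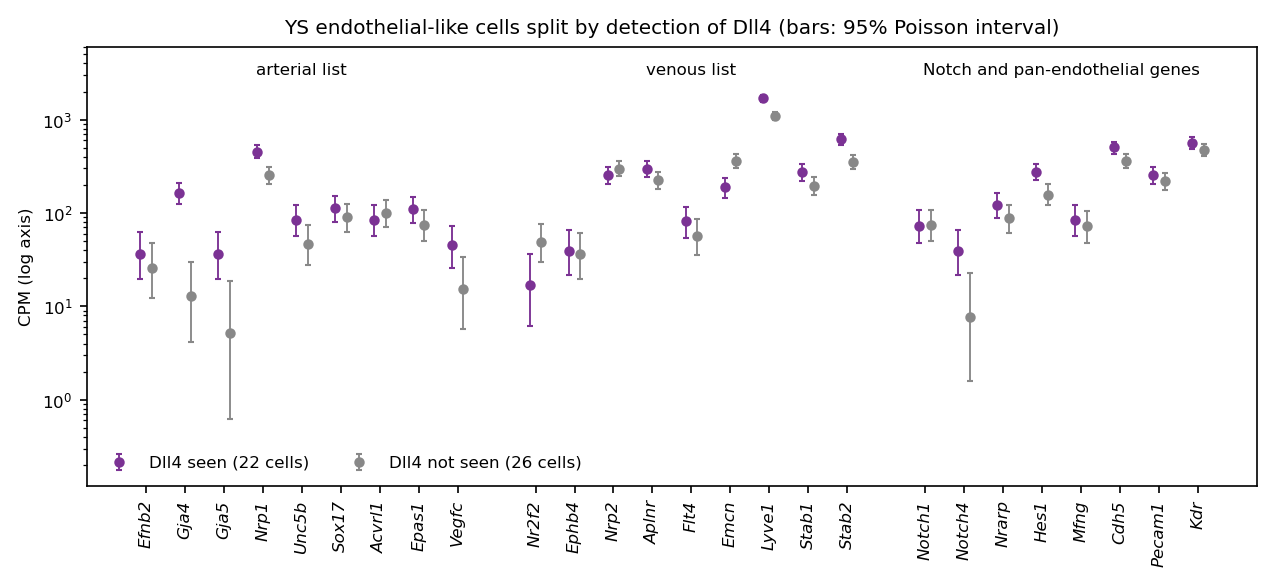
CPM on a log axis of arterial, venous, Notch and general endothelial genes in YS endothelial-like cells in which a Dll4 UMI was seen (purple) or not seen (grey), with 95% Poisson intervals. Gja4, Gja5, Vegfc and Notch4 lie higher and Nr2f2 lower where Dll4 was seen, and most other pairs overlap or lie within 2-fold.

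The same split was made in EB. In the streak and nascent mesoderm-like cluster, 87 cells had a Dll1 UMI and 260 did not, with medians of 26448.0 and 22680.5 UMIs. Of the 9 segmentation and paraxial genes that passed the minimum, 1 was at least 2-fold higher with Dll1, and none without it, beside 1.88% and 3.43% of all 10914 genes: Hes7, the oscillating repressor of somite formation, with 8 UMIs against 6 (3.39-fold, 1.03 to 11.9). Lfng, a Fringe enzyme of the same process, was 1.97-fold higher (1.36 to 2.84) and Mesp2 1.53-fold (1.31 to 1.79). Pcdh19 (1.78, 0.97 to 3.21) and Mesp1 (1.23, 1.17 to 1.28) also had ratios above 1, and Rspo3 was level (1.01). Cited1 ran the other way, at 12.3 CPM with Dll1 against 19.8 CPM without (0.62, 0.40 to 0.93). Dll3 was at 193.4 against 174.5 CPM, a 1.11-fold ratio (0.993 to 1.24). Tbx6, a regulator of presomitic mesoderm, had 54 UMIs against 116 (1.18-fold, 0.841 to 1.65) and was seen in 33.1% of the cluster's cells. Msgn1 had 3 UMIs and Ripply2 4 in the whole cluster and Meox1 had none, so of the genes known from presomitic and somitic mesoderm some were present there and others were at or near 0.

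In the hemangiogenic-like EB cells, 76 had a Hey1 UMI and 97 did not, with medians of 28020.5 and 22759.0 UMIs. Sox17, a regulator of arterial endothelium that also marks definitive endoderm, was 3.50-fold higher with Hey1 (2.27 to 5.56), and Hey2 was 2.62-fold higher (0.858 to 9.48) on 12 UMIs against 5, beside 3.07% of all 10045 genes. None of the 15 genes compared in this split was 2-fold higher without Hey1, where 2.72% of all genes were. Efnb2 was 1.80-fold higher (1.05 to 3.17). Etv2, which starts the hemangiogenic programme, was lower with Hey1, at 311.2 against 463.8 CPM (0.671, 0.609 to 0.739). Hes1 and Notch1 were level, at 0.994 and 0.824 of the value without Hey1.

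Pairs of genes in the same cell were read at own depth and with each cell thinned to 6000 UMIs. Of EB cells with Dll1, 89.3% (84.0 to 93.3) held Dll3 too, beside 52.5% (50.1 to 54.9) of those without Dll1, and the thinned shares were 51.8% (38.0 to 65.3) and 29.5% (27.4 to 31.6). Inside the streak and nascent mesoderm-like cluster the thinned shares were 56.3% (37.7 to 73.6) and 53.7% (48.0 to 59.3). Within the cluster these shares were not separable at this depth. Among YS endothelial-like cells 13 of the 22 that held Dll4 also held Notch1, 59.1% (36.4 to 79.3), beside 61.5% (40.6 to 79.8) of those without Dll4.

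Among YS cells, 188 held Notch1, and 78.2% of them (71.6 to 83.9) also held Hes1, beside 45.0% of the others (40.9 to 49.1). Thinned, these shares were 55.4% (42.5 to 67.7) and 32.3% (28.8 to 35.8). Inside the endothelial-like cluster the thinned shares were 63.2% (38.4 to 83.7) and 55.2% (35.7 to 73.6). Inside the progenitor-like cluster they were 50.0% (15.7 to 84.3) and 27.9% (19.5 to 37.5), and within each of these clusters the intervals overlapped. In EB both shares were 80.5%. Median depths with and without Notch1 were 28770.0 and 28395.0 UMIs in YS and 28479.0 and 24186.0 in EB.

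Across the 24 clusters of at least 20 cells, the genes whose pattern was nearest to each ligand and target were found by Pearson correlation of log2(CPM + 20) among 5114 genes with at least 50 CPM in some cluster. Clusters share their library and depth, and part of these genes formed the clusters, so the correlations are descriptions. Dll1 lay nearest to Mesp2 (0.823), Chst7 (0.812) and Snai1 (0.79), and Dll3 to Mesp1 (0.968), Efna3 (0.961) and Mesp2 (0.949). Mesp1 and Mesp2 are transcription factors of nascent and segmenting mesoderm. Dll4 lay nearest to Clec1a (0.999), Ushbp1 (0.998) and Oit3 (0.998), for which the single endothelial-like cluster sets nearly all the variation.

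Jag1 had no close companion, with Ddit4 (0.749), Dlc1 (0.742) and Ppme1 (0.738) the nearest. Among the genes nearest to Hes1 were Tspan3 (0.937) and Rbfox2 (0.911), and Hey1 lay nearest to Ncapd2 (0.852), Cyp26a1 (0.832) and Cdh2 (0.823). Hey2, which never passed 6.40 CPM in these clusters, lay nearest to Ebf1 (0.867), Nrd1 (0.766) and Ablim1 (0.702). Among the 10 genes themselves the highest correlation was that of Dll1 with Dll3 (0.722), followed by Hey1 with Hey2 (0.654), Dll1 with Notch1 (0.643), Dll1 with Jag1 (0.639) and Dll4 with Notch1 (0.623), while Dll3 with Dll4 was at -0.176.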

How the data were processed

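The deposited values are whole-number UMI counts per gene and barcode, not filtered to cells, which the authors made against mm10 per the submitters' processing notes. For the aligner, counting program, annotation, use of strand and read filters, no name or setting is given in the sources used here. Gene coordinates come from GENCODE vM21. No per-sample column was left unused. The genes and lists were chosen with earlier results of these data known, and the naming rule for clusters was written after clusters had been seen.

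Cells had at least 10% of the 99th percentile of the 3000 largest UMI totals and at most 10% mitochondrial UMIs, and doublets were not removed. Each library was clustered without the 53 pathway genes (scanpy 1.11.5, leidenalg 0.10.2, numpy 2.4.6, scipy 1.17.1, Python 3.11.15: 2000 variable genes, 30 principal components, 15 neighbours, resolution 1, seed 1). A name needed 3 markers at least 2-fold higher and in 25% of cells, a mean log2 difference of 0.5 and 2 markers among the 10 leading genes, or 1 such marker where no other list had any or where most of the list was enriched. This left 4 EB and 1 YS clusters unnamed. Cluster 10 of 1 library is not cluster 10 of the other. A gene with 0 UMIs in a group was set to 3 UMIs for a bound. Empty droplets were barcodes of rank 10001 to 50000. The named genes were the 10 genes, the 3 highest and 3 lowest ratios of the pathway list, the arterial and venous lists in YS endothelial-like cells and the 3 genes nearest in pattern, of which 1 for Hes1 is not reported here. Notch4, Nrarp, the 3 proteases and the genes named in the EB splits were chosen after their values were seen. The intervals were tested on simulated Poisson counts. Alternatives were the UMI and mitochondrial limits, doublet removal, scaling, clustering, gated cells, thinning and, added after seeing the data, the clusters counted as mesoderm or as blood.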

Additional observations from a re-analysis of the deposited data

How the results depend on the processing

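No paired analysis was possible because each group has 1 library, and no library could be left out. Members higher in EB stayed at 4 and in YS at 2 under all 9 alternatives to that comparison, and the pathway counts ran from 9 to 13 and from 8 to 9. Ligands higher in EB mesoderm than in YS endothelial-like cells stayed at 1 throughout. Those higher in the endothelial-like cells numbered 2, but 1.0 with a UMI minimum of 20% of the percentile, a mitochondrial limit of 5%, median-of-ratios size factors, clusters built with the pathway genes, cells chosen by marker UMIs, or cluster 1 counted as mesoderm (added after seeing the data). In each of these Jag1 lost its call. They numbered 3 at resolution 1.5, where Dll1 passed 2-fold too. With the UMI minimum of 20% the log2 ratio of Jag1, -1.16 as reported and -1.57 to -0.125 under the other alternatives, reversed to 0.189; the cause was not tested. Of 200 values of single genes under the alternatives, 179 stayed within the counting interval of the value reported, 20 moved beyond it and 1 of a called gene, that of Jag1, reversed. Against YS blood without its erythroid- and megakaryocyte-like cells (added after seeing the data), members higher in EB mesoderm went from 8 to 7 and in endothelial-like cells from 5 to 4. Size factors moved the median log2 ratio of all genes for EB mesoderm against YS endothelial-like cells from -0.05 to 0.235. Members seen in at least 10% of cells fell from 6 to 3.0 in EB and from 4 to 2.0 in YS, both when cells were thinned and when 2 UMIs were required. Without the 5 cells with most UMIs of a gene, the highest cluster stayed the highest for 8 of 10 genes in EB (not Dll3 and Dll4) and 7 of 10 in YS (not Dll1, Dll3 and Hey2). Scrublet marked 3 EB and 2 YS cells, 0.16% and 0.258%, where 1.5% and 0.62% were expected, so leaving them out says little about doublets. Genes with under 10 UMIs in a cluster, such as Dll4 in EB and Hey2 in YS, are limited by depth.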
